A study of Arabidopsis thaliana with 6 samples.

Results

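The 8 genes described here encode lipid transfer proteins of Arabidopsis thaliana: LTP1 (AT2G38540), LTP2 (AT2G38530), LTP3 (AT5G59320), LTP4 (AT5G59310), LTP5 (AT3G51600) and LTP6 (AT3G08770), which are small secreted proteins, and LTPG1 (AT1G27950) and LTPG2 (AT3G43720), which are held at the outer face of the plasma membrane by a glycosylphosphatidylinositol (GPI) anchor. They were taken by their gene codes from a count table of 32313 genes, and all 8 were found there and passed the filter on low counts. Messenger RNA had been counted by RNA-seq in 3 libraries of line BP12-2 and 3 libraries of the wild type (WT), both of the Columbia ecotype. The labels call BP12-2 a knockdown line of TOR, the target of rapamycin kinase. In BP12 plants the FKBP12 protein of yeast is expressed from a transgene, through which rapamycin can act on plant TOR. Both groups were seedlings grown on 0.5 MS medium and moved, 15 days past germination, to the same medium with 10 µg/ml rapamycin for 3 days, so the drug was shared by BP12-2 and WT. BP12-2 is 1 line and no library without rapamycin was analysed here (the labels name a control medium with the solvent DMSO), so a difference that the line carries without the drug cannot be told apart from one that needs it. Nothing in the labels tells if the 3 libraries of a group had separate cultures behind them, so that p-values cover no more than the variation among these 6 libraries, which may be technical.

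Lipid transfer proteins carry a hydrophobic cavity that is closed by conserved disulfide bridges and holds fatty acids, phospholipids or acyl-CoA. In shoots many of them are made by epidermal cells and reach the cell wall, and they are known for their part in building the cuticle, the layer of cutin and wax that limits water loss. LTP1 is the abundant epidermal member, LTP2 has been tied to the barrier of the hypocotyl cuticle, LTP3 and LTP4 are known for induction by drought and abscisic acid, and LTPG1 and LTPG2 are needed for normal wax on stems. The wax regulator MYB96 is known to activate LTP3.

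In the TAIR10.1 annotation 6 of the genes are named lipid transfer proteins 1 to 6, LTPG1 is named a GPI-anchored lipid transfer protein, and LTPG2 carries only the name of the wider lipid-transfer and 2S albumin superfamily. LTP2 (chr2:16128176-16129399) and LTP1 (chr2:16130290-16131240) lie in the same direction with 890 bases and no other gene between them. LTP4 (chr5:23924990-23925957, minus strand) and LTP3 (chr5:23928954-23929816, plus strand) point away from each other across 2996 bases with no gene between. LTP5 (chr3:19138338-19139423, minus strand), LTP6 (chr3:2664069-2664888, minus strand), LTPG1 (chr1:9740508-9742159, plus strand) and LTPG2 (chr3:15615386-15617309, minus strand) stand alone. TAIR10.1 is not the build the authors aligned to (TAIR9), and no coordinates were converted.

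The coding sequences of the neighbouring pairs are alike, which bears on whether their reads can be told apart. LTP1 and LTP2 were identical at 82.4% of aligned coding positions and LTP3 and LTP4 at 84.5%, while the secreted LTP1 and LTP6 shared 47.3% and LTPG1 and LTPG2 44.9%. The longest stretch without a difference was 27 coding bases between LTP1 and LTP2 and 44 between LTP3 and LTP4. No 50-base word in the exons of any of the 8 genes occurred in the exons of another gene. Within the coding bases of the pairs this was fixed in advance, as the longest matches were shorter than 50 bases. Only exact words were compared and the read length is not given here. Whether reads placed with mismatches crossed between neighbours was therefore not tested. The stretches around these longest matches are shown from the reference, 5′ to 3′, with capitals where the neighbours differ. They are coding bases 1 to 57 of LTP1 and of LTP2, and coding bases 229 to 332 of LTP3 beside 229 to 323 of LTP4.
LTP1: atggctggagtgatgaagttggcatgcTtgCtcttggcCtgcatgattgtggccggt
LTP2: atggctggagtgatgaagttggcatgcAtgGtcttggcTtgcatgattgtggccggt
LTP3: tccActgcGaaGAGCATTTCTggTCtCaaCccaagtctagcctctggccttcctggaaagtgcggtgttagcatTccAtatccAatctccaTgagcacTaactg
LTP4: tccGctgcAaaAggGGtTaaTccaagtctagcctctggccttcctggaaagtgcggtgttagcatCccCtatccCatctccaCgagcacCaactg
In the LTP1 and LTP2 stretch 3 bases differed. In the LTP3 and LTP4 stretch 12 bases differed and 9 bases of LTP3 had no counterpart in LTP4. LTPG1 shares 23 exon bases with AT1G27960 on the opposite strand, which had 69 to 171 counts in BP12-2 and 88 to 152 counts in WT, while LTPG1 had 604 to 1396 counts in BP12-2 and 638 to 1372 counts in WT. Strand use in counting is not stated, so reads in those 23 bases cannot be assigned to LTPG1 or AT1G27960. The exons of the other 7 genes overlap no annotated exon.

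The libraries held between 6706610 and 17092773 counts. TOR itself was at 27.8 to 32.6 CPM (counts relative to the library total, scaled by the TMM factors of edgeR) in BP12-2 and at 34.3 to 38.5 CPM in WT, which missed the threshold of the edgeR quasi-likelihood test (adjusted p = 0.292). In circadian clock transcripts a pair of libraries, BP12-2 replicate 1 and WT replicate 3, differed from the others. GI, an evening gene, was at 149 CPM in BP12-2 replicate 1 and 158 CPM in WT replicate 3, against 62.3 to 74.8 CPM in the other 4 libraries. TOC1, also an evening gene, was at 63.1 CPM in BP12-2 replicate 1 and 70.1 CPM in WT replicate 3, and the morning gene CCA1 at 124 CPM in BP12-2 replicate 1 and 102 CPM in WT replicate 3. In the other 4 libraries TOC1 was at 33.2 to 36.7 CPM and CCA1 at 154 to 241 CPM. GRP7, an RNA-binding protein gene under clock control, was at 416, 131 and 129.6 CPM in BP12-2 libraries, with 144, 74.7 and 391 CPM in WT libraries. The column names of the count table hold the code L08 for BP12-2 and L07 for WT, of unstated meaning, which cannot be told apart from the genotype. Epidermal marker genes were present throughout: the summed level of the 7 on the list was 678 to 761 CPM in BP12-2 and 702 to 774 CPM in WT.

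None of the 8 genes passed the edgeR quasi-likelihood test with Benjamini-Hochberg adjustment over 19436 genes, where 0.0669% of genes passed. Relative to WT, LTP4 and LTP3 had the largest differences of the 8, with lower values in BP12-2, and the other 6 differed by less than 0.30 on the log2 scale. The values of BP12-2 lay wholly below those of WT for LTP1, LTP3 and LTP4 and wholly above them for LTP5, so 4 of 8 genes were separated, where 24.3% of all tested genes were (12.1% higher and 12.2% lower). At an unadjusted p under 0.05 there were 3 of the 8, LTP3, LTP4 and LTP5, where 18.2% of all genes were. DESeq2 and limma voom also called 0 of the 8, with 3.19% and 0.113% of all genes called. Each had 2 of the 8 at an unadjusted p under 0.05, where DESeq2 had 14% of all genes and limma voom 19%. The edgeR exact test called LTP4 alone, with 4.33% of all genes called. The median log2 fold change of the 8 genes was 0.02, beside 0.01 over all genes tested, with 4 positive and 4 negative values. In bulk seedling RNA, fewer cells of a type and less RNA per cell cannot be told apart. The 8 genes together took 0.0955% to 0.104% of counts in BP12-2 and 0.106% to 0.135% in WT. The highest share was that of WT replicate 2. Of its 18292 counts for the 8 genes, 9000 were from LTP1 and 4786 from LTP3 and LTP4, so these shares do not describe each member.

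**Figure D1:**
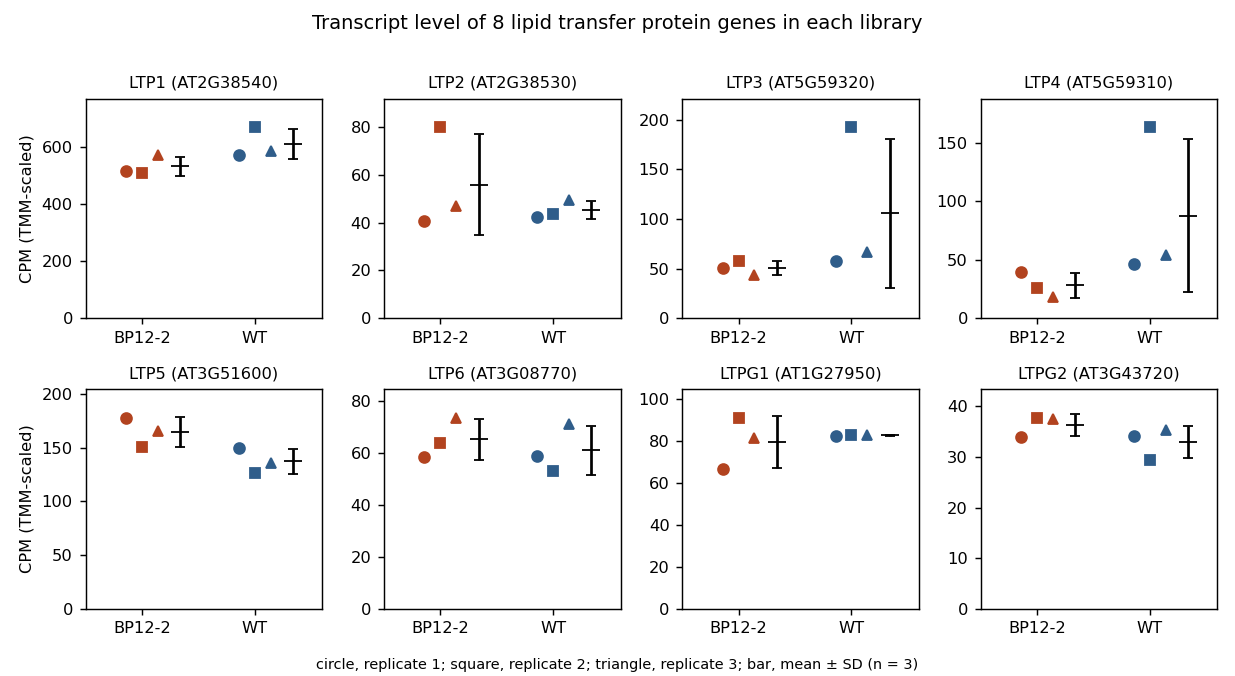
CPM of each of the 8 genes (y axes, from 0, TMM-scaled) in the 3 BP12-2 and 3 WT libraries, with symbols for the replicate number and bars for the mean ± SD. WT replicate 2 holds the highest LTP3 and LTP4 values, 192 and 163 CPM, and BP12-2 replicate 2 the highest LTP2 value, 79.9 CPM.

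LTP4 had 399, 172 and 316 counts in the BP12-2 libraries and 358, 2199 and 895 counts in the WT libraries. Scaled to depth, LTP4 was at 39.8, 25.9 and 18.4 CPM across the BP12-2 libraries (replicates 1 to 3), against 46.1, 163 and 53.9 CPM across the WT libraries. WT replicate 2 was far above the other libraries, and the gap between BP12-2 replicate 1 and WT replicate 1 was small. The log2 fold change was -1.66 ± 0.51 (SE, n = 3 per group), which missed the threshold of the edgeR quasi-likelihood test (adjusted p = 0.162). By the edgeR exact test, LTP4 passed (adjusted p = 0.0370, log2 fold change -1.65), and over the 19 other settings tried its adjusted p ran from that value to 0.406. Without WT replicate 2 the log2 fold change was -0.85 (adjusted p = 0.348).

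LTP3 had 505, 381 and 741 counts in the BP12-2 libraries and 448, 2587 and 1106 counts in the WT libraries. Scaled to depth, LTP3 was at 50.4, 57.3 and 43.1 CPM across the BP12-2 libraries (replicates 1 to 3), against 57.7, 192 and 66.6 CPM across the WT libraries. As for LTP4, WT replicate 2 alone was high, and the highest BP12-2 value, 57.3 CPM, lay just under the lowest WT value, 57.7 CPM. The log2 fold change was -1.08 ± 0.43 (SE), which did not pass the edgeR test (adjusted p = 0.25), and it was -0.31 without WT replicate 2 (adjusted p = 0.451). With the counts of LTP3 and LTP4 summed as 1 feature the log2 fold change was -1.31 ± 0.45 (SE; edgeR adjusted p = 0.197). LTP3 and LTP4 had wider ranges over the 6 libraries than 97.8% and 99.6% of the tested genes, while LTP1, LTP5, LTP6, LTPG1 and LTPG2 had narrower ranges than the median gene, whose range was 0.59 on the log2 scale.

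LTP1, the most abundant of the genes, was at 517, 509 and 570.4 CPM across the BP12-2 libraries (replicates 1 to 3) and at 572, 669 and 587 CPM across the WT libraries. The groups did not overlap, but BP12-2 replicate 3 and WT replicate 1 were nearly level. The log2 fold change of -0.20 ± 0.11 (SE) did not pass the edgeR test (adjusted p = 0.386), and it was -0.12 without WT replicate 2. Its neighbour LTP2 was at 40.7, 79.9 and 47.1 CPM in BP12-2 and at 42.5, 43.7 and 49.4 CPM in WT. Only BP12-2 replicate 2 was high, and the groups overlapped. The log2 fold change of LTP2, 0.29 ± 0.24 (SE; edgeR adjusted p = 0.557), was -0.04 without BP12-2 replicate 2.

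LTP5, a relative of a lily protein that takes part in pollen tube adhesion, was at 178, 150.3 and 166 CPM across the BP12-2 libraries (replicates 1 to 3), against 149, 126 and 136 CPM across the WT libraries. It was the member whose BP12-2 values all lay above the WT values, with the lowest BP12-2 value and the highest WT value close together. Its log2 fold change of 0.26 ± 0.11 (SE) did not pass the edgeR test (adjusted p = 0.256) and stayed between 0.19 and 0.33 over the 19 other settings. LTP6 was at 58.3, 63.8 and 73.6 CPM in BP12-2 and at 58.9, 52.9 and 71.3 CPM in WT, with overlapping groups and a log2 fold change of 0.10 ± 0.14 (SE; edgeR adjusted p = 0.762).

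The GPI-anchored members had small log2 fold changes. LTPG1 was at 66.4, 90.9 and 81.2 CPM across the BP12-2 libraries (replicates 1 to 3) and at 82.2, 82.5 and 82.6 CPM across the WT libraries, so WT values were almost equal and BP12-2 values spread to both sides of them. The log2 fold change was -0.05 ± 0.12 (SE; edgeR adjusted p = 0.857). LTPG2 was at 33.9, 37.8 and 37.4 CPM in BP12-2 and at 34.1, 29.4 and 35.4 CPM in WT, with a log2 fold change of 0.14 ± 0.10 (SE; edgeR adjusted p = 0.516) and overlapping groups; without WT replicate 2 it was 0.06. With 251 or more counts of LTPG2 and 604 or more of LTPG1 in every library, a difference of the size seen here was not detectable over the spread between libraries.

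**Figure D2:**
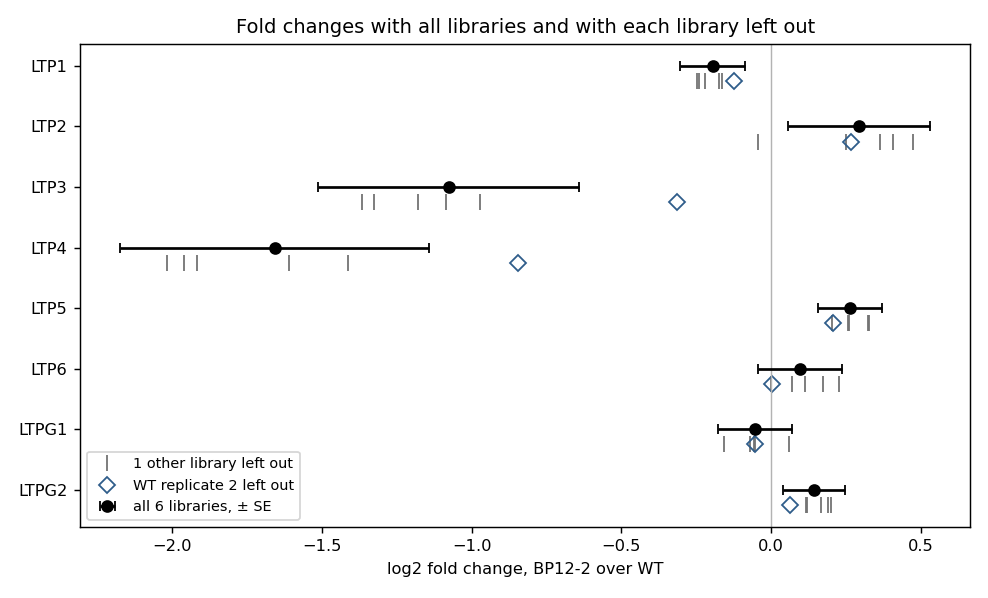
Log2 fold changes, BP12-2 over WT (x axis), of the 8 genes with all 6 libraries (black points, bars ± SE) and with 1 library left out (marks below each point, diamonds for WT replicate 2). LTP4 and LTP3 move furthest, to -0.85 and -0.31 without WT replicate 2, and stay below 0.

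Set on a scale per length (CPM per kb of exon, TAIR10.1 gene models), LTP1 was at 640 ± 40.1 in BP12-2 and 732 ± 62.8 in WT (SD, n = 3 each). Its lowest value over the libraries, 612 CPM per kb, lay above the highest value of every other member, 250.03 CPM per kb for LTP3 in WT replicate 2. LTP5 followed at a mean of 154 CPM per kb over the 6 libraries, then LTP3 at 101, LTP6 at 86.9, LTPG1 at 82.4, LTP4 at 69.8, LTP2 at 45.4 and LTPG2 at 36.3. From LTP5 downwards the ranges of each neighbouring pair in this order overlapped. LTP4 was at 33.8 ± 13.1 CPM per kb in BP12-2 and 106 ± 79.04 in WT, which put it below LTP2 in BP12-2 and above LTP6 in WT by mean, with the WT mean carried by replicate 2. Lengths came from the union of annotated exons, so a transcript shorter than its annotation is understated.

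The split of counts within the LTP3 and LTP4 pair differed between libraries. LTP4 made up 44.1% of the LTP3 and LTP4 counts in BP12-2 replicate 1, 31.1% in BP12-2 replicate 2 and 29.9% in BP12-2 replicate 3. The share was 44.4%, 45.9% and 44.7% in WT replicates 1 to 3. WT replicate 2, with the highest level of both genes, thus had the share of the other WT libraries, and BP12-2 replicate 1 sat at the WT level. The 95% exact binomial intervals ran over 27.3% to 35.1% for BP12-2 replicate 2, over 27.1% to 32.8% for BP12-2 replicate 3, and over 42.5% to 46.9% for WT replicate 3, covering counting error only. Over libraries the share was 35.0% ± 7.90 in BP12-2 and 45.0% ± 0.81 in WT (SD, n = 3 each); an exact two-sided permutation test gave p = 0.10, the smallest that 3 against 3 libraries allow. This share was chosen after its values were seen.

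In the LTP1 and LTP2 pair, LTP2 made up 7.30%, 13.6% and 7.62% of the counts in BP12-2 replicates 1 to 3 and 6.92%, 6.13% and 7.77% in WT replicates 1 to 3. BP12-2 replicate 2 departed furthest from the rest, with a 95% exact binomial interval of 12.5% to 14.7%. The interval of WT replicate 2, 5.66% to 6.63%, also lay below that of WT replicate 3, 7.27% to 8.30%. These intervals cover counting error only. With LTP1 and LTP2 summed the log2 fold change was -0.15 ± 0.11 (SE; edgeR adjusted p = 0.481).

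**Figure D3:**
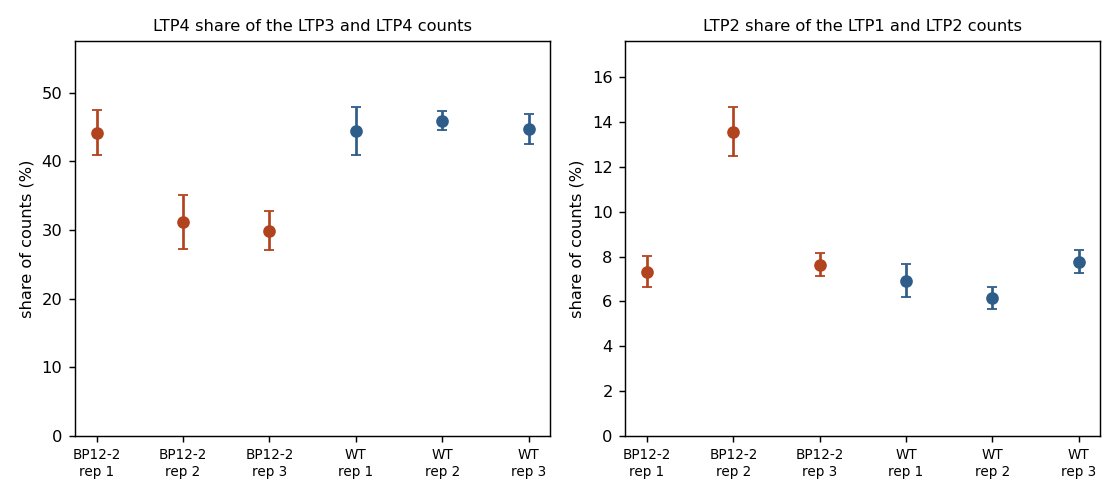
Share of counts (y axes, percent, from 0) taken by LTP4 within the LTP3 and LTP4 pair and by LTP2 within the LTP1 and LTP2 pair in each library, with 95% exact binomial intervals. BP12-2 replicates 2 and 3 sit near 31.1% and 29.9% for LTP4 while the other 4 libraries lie between 44.1% and 45.9%.

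The log2 differences were also taken separately in the libraries that stood apart in clock transcripts and in the rest. Between BP12-2 replicate 1 and WT replicate 3, which hold 1 library of each group and allow no test, the log2 difference was -0.44 for LTP4 and -0.40 for LTP3. In the other 4 libraries it was -2.29 for LTP4 (edgeR adjusted p = 0.108) and -1.34 for LTP3 (adjusted p = 0.209). Those 4 include WT replicate 2, where LTP4 was at 163 CPM, against 46.1 CPM in WT replicate 1. For LTP3 these values were 192 and 57.7 CPM. With a term for the pair and without WT replicate 2, the log2 fold change was -0.79 for LTP4 and -0.30 for LTP3. That setting was chosen after seeing the data. LTP1 was at -0.18 between the pair and -0.20 in the other 4 libraries, and LTP5 at 0.39 and 0.20. LTP2, LTP6, LTPG1 and LTPG2 changed sign, with -0.28, -0.29, -0.32 and -0.06 between the pair and 0.54, 0.31, 0.06 and 0.25 in the other 4. No member passed the edgeR test in the 4 libraries, where 0.197% of genes did. The part of the clock state in these values was not tested.

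Among 14817 genes with a mean of at least 5 CPM, the 5 whose pattern over the 6 libraries was most like that of LTP4 were CSLG2, GPT2, PHT3;2, CORI3 and LTP3. Likeness was the root mean square difference of log2 CPM centred on each gene's mean, which was 0.20, 0.31, 0.36, 0.42 and 0.42 in that order. CSLG2, a cellulose synthase-like gene, was at 12.9, 12.5 and 6.87 CPM in BP12-2 and 19.7, 71.3 and 18.5 CPM in WT. GPT2, which encodes a plastid glucose 6-phosphate translocator, was at 25.1, 15.5 and 8.21 CPM in BP12-2 and 29.0, 135 and 47.0 CPM in WT. PHT3;2, a mitochondrial phosphate carrier gene, and CORI3, a coronatine-induced gene, were likewise highest in WT replicate 2, at 12.3 and 185 CPM. As the 5 were chosen by likeness to LTP4, their shared peak follows from the choice and is no separate result. Of the other members LTP1 ranked next, at 2230 with a difference of 0.89, and the rest ranked between 7643 and 13100. The range of LTP1 over the libraries was 0.39 on the log2 scale, against 3.14 for LTP4, so its rank does not show a shared pattern.

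**Figure D4:**
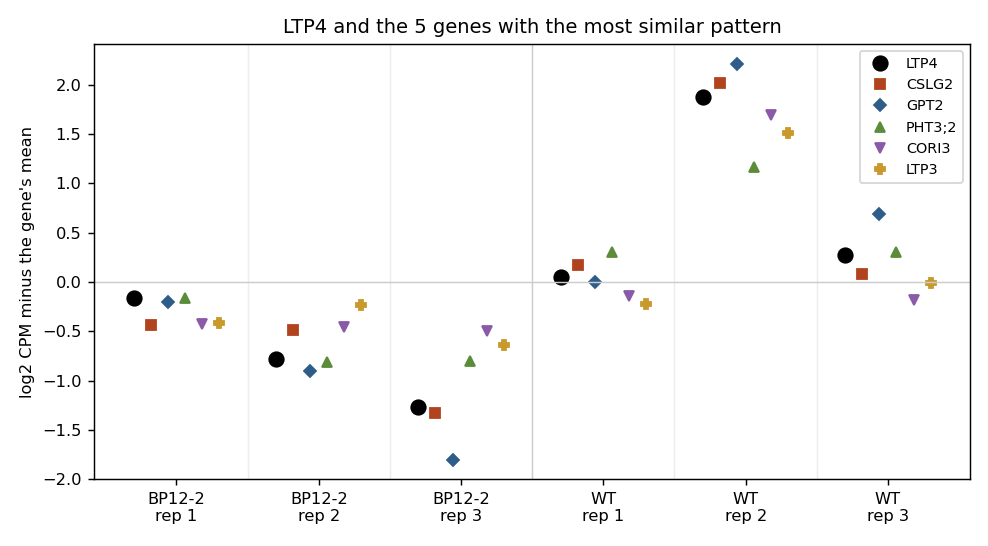
Log2 CPM minus the gene's own mean (y axis) in each library for LTP4 and the 5 genes with the most similar pattern, with symbols by gene. All 6 genes are highest in WT replicate 2, where LTP4 lies 1.87 above its mean. For the 5 this follows from their choice by likeness to LTP4.

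The other lipid transfer protein genes were described from lists of related genes. Of 9 further LTP-type genes 3 passed the filter on low counts and 0 passed the edgeR test. LTP7 was at 44.1 ± 4.42 CPM in BP12-2, against 46.0 ± 6.72 CPM in WT, and AT2G18370, annotated to the lipid-transfer superfamily, at 37.8 ± 5.22 CPM in BP12-2, against 40.6 ± 1.74 CPM in WT (SD, n = 3 each). AT2G15325, AT5G44265, AT5G62065 and AT4G08530 had a count of 0 in every library, which allows up to 0.447 CPM in the shallowest one, and LTP12 had 1 count in BP12-2 replicate 2. Of 6 further GPI-anchored genes 4 passed the filter. LTPG5 was at 80.7 ± 35.4 CPM in BP12-2, against 77.9 ± 34.8 CPM in WT, and AT1G62790 at 31.2 ± 2.74 CPM in BP12-2, against 34.8 ± 2.38 CPM in WT. AT2G48130, named after its values were seen, was at 17.2, 39.0 and 32.0 CPM in BP12-2 against 17.1, 12.7 and 8.91 CPM in WT. Its log2 fold change of 1.204 ± 0.33 (SE) missed the threshold of the edgeR quasi-likelihood test (adjusted p = 0.135), and it passed by DESeq2 (adjusted p = 0.0161) and by the edgeR exact test (adjusted p = 0.0217).

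Genes that make and export cuticle lipids missed the threshold of the edgeR quasi-likelihood test. Of 12 wax synthesis genes tested, 8 had negative log2 fold changes, with a median of -0.11. BP12-2 values lay wholly below WT for 2 of them and wholly above for 1, PAS2 (log2 fold change 0.67). Over all tested genes 12.2% lay wholly below and 12.1% wholly above. CER6, the elongase of very long fatty acids for wax, was at 336, 265 and 322 CPM in BP12-2 and at 384, 527 and 423 CPM in WT, so the groups did not overlap (log2 fold change -0.53 ± 0.15, SE; edgeR adjusted p = 0.142). CER9, a ubiquitin ligase gene of the cuticle, was at 196 ± 19.9 CPM in BP12-2, against 207 ± 3.503 CPM in WT (SD, n = 3 each). Of 12 cutin synthesis genes 7 were negative, with a median of -0.08. BP12-2 values lay wholly below WT for 1 of these 12 genes and wholly above for 1, CYP86A4 (log2 fold change 0.42). CYP86A2, a fatty acid hydroxylase, was at 120, 120.5 and 132 CPM in BP12-2 and at 160, 193 and 164 CPM in WT, with a log2 fold change of -0.48 ± 0.11 (SE; edgeR adjusted p = 0.101) that passed by DESeq2 (adjusted p = 0.0213). The acyltransferase gene DCR was at 116 ± 8.84 CPM in BP12-2, against 129 ± 22.1 CPM in WT.

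Of 4 exporter genes, whose products carry cuticle lipids across the plasma membrane, 3 had negative log2 fold changes, with a median of -0.13. The values of BP12-2 lay wholly below those of WT for 2 of the 4, ABCG11 and ABCG12, where 12.2% of all tested genes did so. ABCG13 and ABCG32 overlapped between the groups, with log2 fold changes of 0.09 and -0.0008. ABCG12 was at 92.6 ± 4.52 CPM in BP12-2, against 111 ± 8.57 CPM in WT, and ABCG11 at 60.1 ± 7.18 CPM in BP12-2, against 80.9 ± 10.2 CPM in WT (SD, n = 3 each; edgeR adjusted p = 0.215 and 0.158). The cuticle transcription factor list had a median log2 fold change of -0.39, with 5 of 6 tested genes negative. BP12-2 values lay wholly below WT for 3 of the 6, where 12.2% of all tested genes did so, and wholly above for 0. MYB96 was at 22.4, 22.3 and 16.2 CPM in BP12-2 and at 25.8, 26.3 and 29.9 CPM in WT (log2 fold change -0.45 ± 0.15, SE; edgeR adjusted p = 0.179). DEWAX, a repressor of wax genes, was at 43.5 ± 23.7 CPM in BP12-2, against 62.6 ± 46.3 CPM in WT, and was highest in the libraries that stood apart in clock transcripts, at 70.1 CPM in BP12-2 replicate 1 and 116 CPM in WT replicate 3. Suberin genes had a median of 0.23 with 10 of 14 positive. KCS20, an elongase gene, was at 181 ± 24.7 CPM in BP12-2, against 186 ± 5.73 CPM in WT, and the suberin feruloyl transferase gene ASFT at 97.3 ± 40.2 CPM in BP12-2, against 81.4 ± 28.7 CPM in WT.

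Of 12 abscisic acid response genes 8 had negative log2 fold changes, with a median of -0.17, and 0 passed the edgeR quasi-likelihood test. RD22, a gene induced by dehydration, was at 249.97, 234 and 311 CPM in BP12-2 and at 358, 649 and 403 CPM in WT, with WT replicate 2 highest as for LTP3 and LTP4 (log2 fold change -0.83 ± 0.23, SE; edgeR adjusted p = 0.1396). ABI1, a phosphatase of abscisic acid signalling, was at 166 ± 18.6 CPM in BP12-2, against 153 ± 4.97 CPM in WT. Its highest value, 185 CPM, was in BP12-2 replicate 1, where RAB18 and COR15A were also highest. RD29A, RD29B, ABI2, HAI1 and NCED3 were, like RD22, highest in WT replicate 2. ABF3 was highest in BP12-2 replicate 3, ABF4 in WT replicate 1 and ABI5 in WT replicate 3. Markers of cell types are given beside these values. The median log2 fold change was -0.16 for 7 epidermis markers, of which 6 were negative and 1 positive, with FDH at 288 ± 10.4 CPM in BP12-2, against 347 ± 30.6 CPM in WT, and PDF1 at 284 ± 30.8 CPM in BP12-2, against 225 ± 9.93 CPM in WT. It was -0.26 for 6 guard cell markers, of which 5 were negative and 1 positive. The values of BP12-2 lay wholly below those of WT for FAMA and KAT1, where 12.2% of all tested genes did so. They lay wholly above for EPF1, whose log2 fold change was 0.64, where 12.1% did so, and the other 3 markers overlapped. The summed level of all 6 was 48.9 to 69.3 CPM in BP12-2 and 69.8 to 81.0 CPM in WT, with FAMA at 17.6 ± 3.59 CPM in BP12-2, against 23.4 ± 1.26 CPM in WT, and KAT1 at 14.8 ± 1.63 CPM in BP12-2, against 23.1 ± 4.97 CPM in WT. The median log2 fold change was 0.20 for 7 root markers, of which 6 were positive and 1 negative, with summed levels of 313 to 329 CPM in BP12-2 and 279 to 331 CPM in WT, PHT1;1 at 100.2 ± 20.2 CPM in BP12-2, against 132 ± 20.3 CPM in WT, and SCR at 102 ± 15.0 CPM in BP12-2, against 90.5 ± 7.45 CPM in WT. All markers on the 3 lists were detected; their part in the values of the lipid transfer genes was not tested. Over the 12 lists 0 of 97 tested genes passed the edgeR quasi-likelihood test, with 22 at an unadjusted p under 0.05 where 18.2% of all genes were. DESeq2 called 4 of the 97, CYP86A2, RD22, AT2G48130 and the root hair gene EXPA7, where it called 3.19% of all genes. The edgeR exact test called 5, these and KAT1, where it called 4.33% of all genes, so both counts were near the share over all genes. Limma voom called 0 of the 97. EXPA7, EPF1, PAS2, CYP86A4, ABCG13 and ABCG32 were named after their values were seen. So were the abscisic acid response genes other than RD22 and ABI1.

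**Figure D5:**
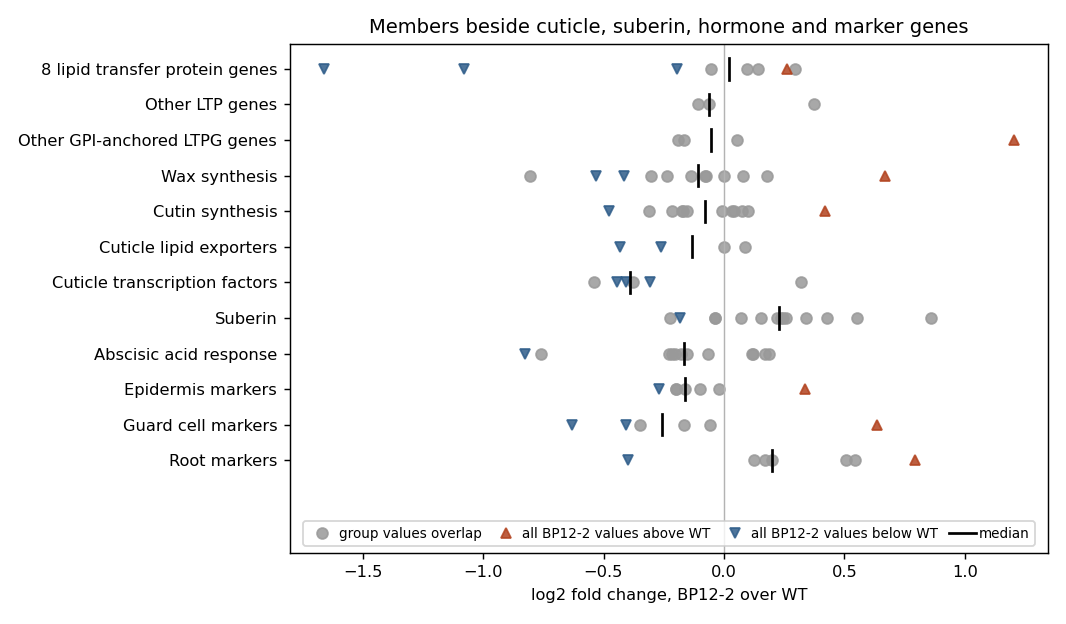
Log2 fold changes, BP12-2 over WT (x axis), of the 8 members and of the tested genes on 11 lists, with triangles where the 3 values of a group all lay above or below those of the other and lines at the medians. No gene shown passed the edgeR quasi-likelihood test, and LTP4 lies furthest from 0 at -1.66.

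The 250 bases before the annotated start of LTP3, LTP4 and LTP2 are shown because these 3 genes varied most between libraries. Capitals mark, in LTP4, both copies of a run of 29 bases that occurs at 104 and again at 54 bases before the start, and, in LTP2, the core of the abscisic acid response element (ACGTG, both strands). The windows are chr5:23928704-23928953 (plus strand), chr5:23925958-23926207 (minus strand) and chr2:16127926-16128175 (plus strand) of TAIR10.1.
LTP3: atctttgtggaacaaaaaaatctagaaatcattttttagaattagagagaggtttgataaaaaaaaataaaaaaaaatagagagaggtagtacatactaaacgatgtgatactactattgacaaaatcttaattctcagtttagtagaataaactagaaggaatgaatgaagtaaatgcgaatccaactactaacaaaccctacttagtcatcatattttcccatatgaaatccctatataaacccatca
LTP4: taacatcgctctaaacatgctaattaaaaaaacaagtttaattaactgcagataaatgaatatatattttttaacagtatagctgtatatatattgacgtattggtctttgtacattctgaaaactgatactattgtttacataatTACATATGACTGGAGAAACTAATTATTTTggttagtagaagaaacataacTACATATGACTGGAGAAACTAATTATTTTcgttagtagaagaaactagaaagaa
LTP2: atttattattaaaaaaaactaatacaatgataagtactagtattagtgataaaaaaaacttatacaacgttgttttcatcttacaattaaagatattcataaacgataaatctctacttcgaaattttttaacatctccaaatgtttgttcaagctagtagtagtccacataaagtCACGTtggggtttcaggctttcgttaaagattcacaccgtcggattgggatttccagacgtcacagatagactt
The longest repeated run in the windows of LTP2 and LTP3 had 11 bases. The ACGTG core occurred once in the LTP2 window, 74 bases before the start, and in none of the other 7 windows, where 21.8% of 31770 windows of the same length held it. The core of the dehydration response element (CCGAC, both strands) occurred in the LTP2 window alone of the 8, 36 bases before the start, and in 12.2% of all windows. The L1 box of epidermal genes (TAAATGCA or TAAATGTA, both strands) occurred in none of the 8 and in 4.52% of all windows. A match is a description of letters, and annotated starts may lie away from the start used in seedlings.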

How the data were processed

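RNA of seedlings was sequenced in 6 libraries. Per the series design text in the labels, the authors aligned paired-end reads with Bowtie to TAIR9 and counted reads per gene with HTSeq; Bowtie by itself places no read across an intron, and neither versions nor counting mode nor strand use are stated. The deposited values are raw counts per gene, not normalized, and no column was left unused. Sample titles gave the groups and replicate numbers. Chi-square over its degrees of freedom was at least 11.5 for every pair of libraries, so none was a repeat of another.

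Genes were kept by filterByExpr of edgeR 4.0.16 (count minimum 10, total minimum 15) under R 4.3.3, which left 19436, and scaled by TMM. Genotype was tested by quasi-likelihood F in edgeR (2-sided), p-values were adjusted by Benjamini-Hochberg and called under 0.05. The SE of a log2 fold change is its size over the square root of F. DESeq2 1.42.0, limma 3.58.1 and the other settings of the closing section were alternatives. Log2 CPM used a prior count of 2.

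Gene models and sequence came from TAIR10.1, aligned with Biopython 1.88. The 12 lists hold 110 genes, of which 101 carried their symbol in the annotation; the others are given by gene code. Named by rule were the 8 members, up to 3 called genes per list or otherwise its 2 most abundant, the clock genes CCA1, TOC1 and GI, and the 5 genes most like the member with the widest range. Members, lists and tests were chosen with earlier results of these data known. Intervals and limits for 0 counts (3 counts) cover counting error only.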

Additional observations from a re-analysis of the deposited data

How the results depend on the processing

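The count of genes past the threshold was 13 with the quasi-likelihood test. It was 56 with no filter, 620 by DESeq2, 841 by the edgeR exact test, 22 by limma voom, 38 without BP12-2 replicate 1 and WT replicate 3, 992 with a term marking that pair, and 0 to 56 with 1 library left out. With that term and without WT replicate 2, an alternative chosen after seeing the data, it was 393. Of the 8 lipid transfer genes 1 passed by the exact test and 0 under each of the other 18 settings. Of the listed genes 4 passed by DESeq2, 5 by the exact test, 3 with the term for the pair and 1 with the term and without WT replicate 2. Other normalizations, filters and GC and length offsets turned the sign of no member. LTP2 turned to -0.0431 without BP12-2 replicate 2 (range -0.0431 to 0.47 with 1 library left out). The sum of LTP1 and LTP2 was at -0.15, but LTP2 made up only 6.13% to 13.6% of its counts, so this is no turn of LTP2 itself. LTP6 turned to -0.001 without BP12-2 replicate 3 (range -0.001 to 0.23) and to -0.0027 with the term and without WT replicate 2. LTPG1 turned to 0.0592 without BP12-2 replicate 1 (range -0.16 to 0.0592) and to 0.0611 without the pair. The causes were not tested.

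With the replicate number as a block, 0 genes passed, with 2558 at an unadjusted p under 0.05, and no member passed. Libraries of the same number correlated at -0.31, 0.06 and -0.30 in their deviations from the group means. The highest such correlation across the groups, 0.47, was that of BP12-2 replicate 1 with WT replicate 3, which stood apart in clock transcripts. Deviations within a group sum to 0, so a shift shared by that pair also moves the other correlations. These values therefore cannot tell whether the numbers pair the samples. Each member had at least 172 counts in every library.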
